A study of Mus musculus with 4 samples.

Results

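Genes of T cell receptor signalling and of the NFAT and NF-kappaB factors below it were followed in a table of captured methylated DNA. They were Cd28, Cd5, Fyn, Lcp2, Plcg1, Nfatc1, Nfatc2 and Nfkb1. Every region that the table assigns to one of these 8 genes was taken, which gave 9 of 10000 regions, under 8 of 5377 Ensembl gene identifiers. The DNA was from CD4+ T cells that had been isolated out of lymph nodes and spleen from Balb/c females. Each of 4 populations gave 1 library, and how many mice stand behind a library was not stated. Naive cells were sorted as CD3+CD4+CD45RB high. Th1 cells were CD3+CD4+CD45RB low and secreted interferon gamma and not IL-17A, and Th17 cells were CD3+CD4+CD45RB low and secreted IL-17A and not interferon gamma. Regulatory T cells (Treg) were sorted as CD3+CD4+CD25++. All populations were exposed for 3 h to ionomycin (500 ng/ml) with PMA (10 ng/ml), before the sort for naive, Th1 and Th17 cells and after it for Treg cells.

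The T cell receptor signals through Src-family kinases such as Fyn, which start a relay of phosphorylation that gathers the adaptor protein made from Lcp2 and, on it, the phospholipase made from Plcg1. That enzyme releases a pair of messengers, one raising calcium, which through calcineurin sends NFAT factors to the nucleus, and one, diacylglycerol, which activates protein kinase C and through it NF-kappaB. Cd28 encodes the receptor that adds the costimulatory signal, and Cd5 a surface receptor that dampens the response. PMA and ionomycin bypass the receptor, since PMA stands in for diacylglycerol and ionomycin lets calcium into the cell. Methylation of DNA inside a gene can be laid down and lost over cell divisions, among other ways, and differs between naive and effector T cells at many genes.

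The signal of a region is a scaled number of captured reads, and it grows with methylation and with the density of CpG sites. It was therefore compared mainly between libraries within a region. Comparisons between regions, by reads, by value or per length, do not take CpG density into account. A lower signal can come from fewer methylated cells or from less methylation in each cell, and these cannot be told apart. One read was worth 0.996 units in the naive library, 1.68 in the Th1 library and 0.352 in the Treg library. A region typically held few reads, with a median over the table of 3 naive, 2 Th1 and 7 Treg reads. Intervals are exact Poisson or exact binomial intervals at the 95% level for counting error alone, and no difference between populations has a replicate check. All 10000 Th17 values are 0, so the depth of that library is not known from the table and no fold against it is given. The capture measures no expression, so the sorted cells could not be checked against marker expression.

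Most of these genes had a region with more captured DNA in Th1 than in naive cells. Of the 9 regions, 6 had a log2 ratio of Th1 to naive of at least 1, with 0.5 units added to both values, against 19.4% of all regions in the table. These were regions of Lcp2, Cd5, Fyn, Plcg1 and Nfatc2 and the intronic region of Nfkb1. Of the 9 regions, 0 were lower by the same rule, against 29.0% of the table. Over the 9 regions the Th1 library held 33 reads, a mean value of 6.16 (interval 4.24 to 8.66), and the naive library 18 reads, a mean value of 1.99 (1.18 to 3.15). The log2 ratio of the summed values was 1.60 (interval 0.76 to 2.54), and over the whole table it was -0.06. The median log2 ratio was 1.54 for the 9 regions and -0.19 for the table. The genes were chosen with earlier results of these data known, so the counts and the ratio describe them and are no test.

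Both receptor genes had most signal in the Th1 library. The Cd28 region lay in an intron (mm9, chromosome 1, 60790142 to 60790390) and held 4 naive reads (value 3.98), 4 Th1 reads (6.72) and 8 Treg reads (2.82). The same number of reads was thus a higher value in Th1, where a read is worth more, and the log2 ratio of 0.69 stayed under the size rule. The Cd5 region covered exon 5 (chromosome 19, 10799430 to 10799669) and held 1 naive read (0.996), 5 Th1 reads (8.40) and 7 Treg reads (2.47). Th1 stood above both other libraries there, 8.44-fold above naive with an interval of 0.944 to 399. Of the regions in the table, 0.960% had as many Th1 reads as Cd5 together with as few naive reads. Among the 9 regions this share ran from 0.220% for Lcp2 to 36.1% for Nfatc1. It describes regions of genes chosen with their values known and is no test.

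**Figure D1:**
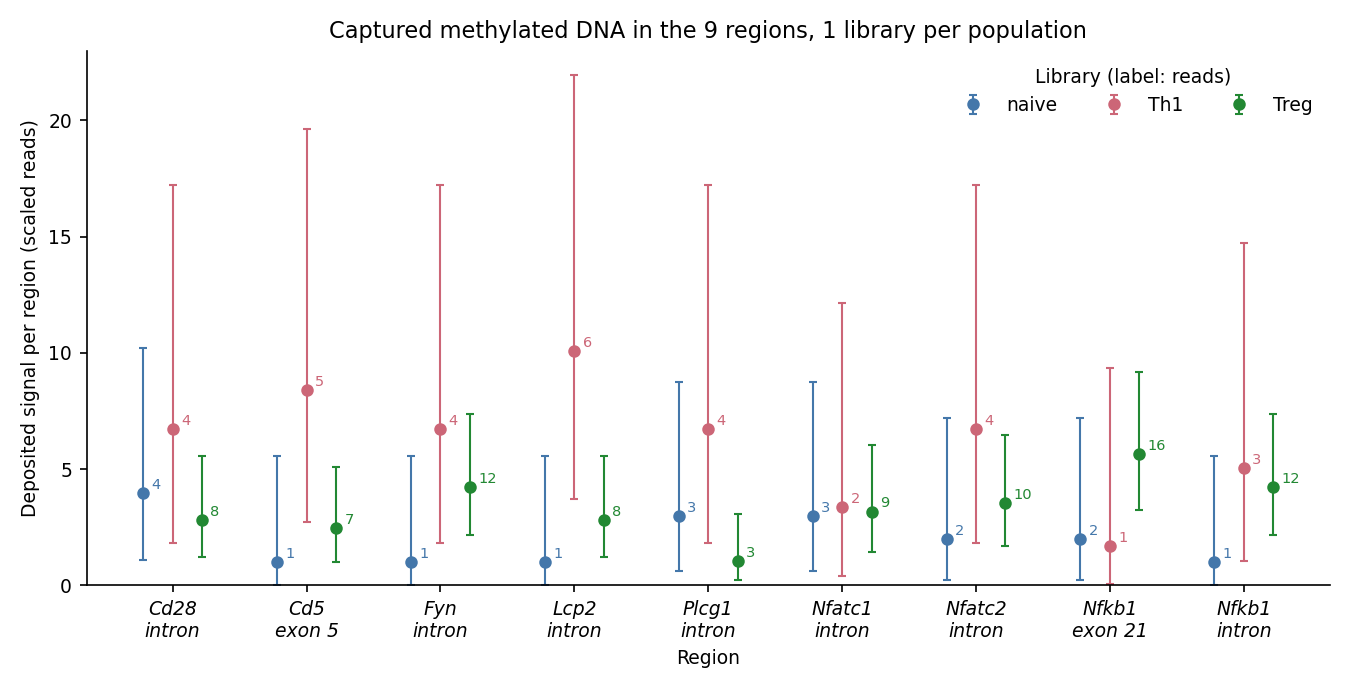
Deposited signal in scaled reads (y axis) of each of the 9 regions (x axis) in the naive, Th1 and Treg libraries. Points are single libraries, the number beside each is its reads, and bars are exact 95% Poisson intervals; the Th1 point is the highest in 8 regions (6 at equal table totals) against 39.7% of the table (34.5% at equal table totals), and the Treg point in Nfkb1 exon 21 (17.6% of the table).

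The kinase and the adaptor showed the same order of libraries, Th1 above Treg above naive. The Fyn region, in an intron (chromosome 10, 39227290 to 39227795), held 1 naive read (0.996), 4 Th1 reads (6.72) and 12 Treg reads (4.23). Naive was the lowest library for Fyn, with a value interval of 0.0252 to 5.55, and Th1 exceeded naive 6.75-fold (interval 0.668 to 332). The Lcp2 region, also intronic (chromosome 11, 33972571 to 33972848), held 1 naive read (0.996), 6 Th1 reads (10.1) and 8 Treg reads (2.82). Its Th1 value was the highest of the 9 regions, also per length, and Th1 exceeded naive 10.1-fold (interval 1.23 to 466). Lcp2 was the only one of the 9 regions whose interval for Th1 against naive left out equal values, and 22 of the 10000 regions, 0.220%, had as many Th1 and as few naive reads.

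Plcg1, the phospholipase gene, had an intronic region (chromosome 2, 160576142 to 160576423) with 3 naive reads (2.99), 4 Th1 reads (6.72) and 3 Treg reads (1.06). Here Treg was the lowest library and Th1 the highest. The Th1 to naive ratio was 2.25-fold (interval 0.381 to 15.4), a log2 ratio of 1.05 with the added units, which passed the size rule narrowly.

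The pair of NFAT genes differed in balance by less than their counting error. The Nfatc2 region, in an intron (chromosome 2, 168369487 to 168369791), held 2 naive reads (1.99), 4 Th1 reads (6.72) and 10 Treg reads (3.52), with a Th1 to naive ratio of 3.37-fold (interval 0.484 to 37.3). The Nfatc1 region, also intronic (chromosome 18, 80874778 to 80875266), held 3 naive reads (2.99), 2 Th1 reads (3.36) and 9 Treg reads (3.17). Nfatc1 was thus nearly level across the libraries, at 1.12-fold (interval 0.0940 to 9.82). Nfatc3, Nfatc4 and Nfat5, the other genes of the NFAT family, had 0 regions in the table. How the regions of the table were chosen is not stated, so a gene without a region is not shown to lack captured DNA.

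Nfkb1, which encodes the p50 subunit of NF-kappaB and its precursor, was the only gene of the 8 with a pair of regions, and their order of libraries differed. The region in exon 21 (chromosome 3, 135253099 to 135253374) held 2 naive reads (1.99), 1 Th1 read (1.68) and 16 Treg reads (5.64). Treg was the highest library there, and 0.990% of the regions in the table had as many Treg reads. That share was the smallest among the regions of the 8 genes, and the largest was 94.6%, for Plcg1. The intronic region (135309013 to 135309335) held 1 naive read (0.996), 3 Th1 reads (5.04) and 12 Treg reads (4.23). The log2 ratio of Th1 to naive was -0.19 in exon 21 and 1.89 in the intron, with intervals that overlap widely. The regions lie 55.6 kb apart, with 0 other regions of the table between them.

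Ordered by the Th1 to naive balance, Lcp2 came first, followed by Cd5, Fyn, the Nfkb1 intron, Nfatc2, Plcg1, Cd28, Nfatc1 and Nfkb1 exon 21. The 9 log2 ratios with the added units ran from -0.19 to 2.82. In all 8 pairs of neighbours in that order, and in all 36 pairs of regions, the intervals overlapped, so the order within the group is not resolved by these reads. An exact 2-sided binomial test of the reads, which compares the libraries and not the cell types, called 0 of the 9 regions between Th1 and naive after Benjamini-Hochberg adjustment over all 10000 regions, and 0 regions of the table (0.00%). The adjusted exact p was 1 for each of the 9 regions. Since no region of the table passed in either direction, this count of 0 does not set the 9 regions apart from it. Before adjustment Lcp2 had an exact p of 0.0127 and Cd5 of 0.0295, and 137 regions of the table, 1.37%, were higher in Th1 with an unadjusted exact p under 0.05. Of the 9 regions, 0 were lower at that limit, with 0.160% of the table. The 9 regions held at most 4 naive reads each, too few to reach that limit in the lower direction, so this count carries no information.

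**Figure D2:**
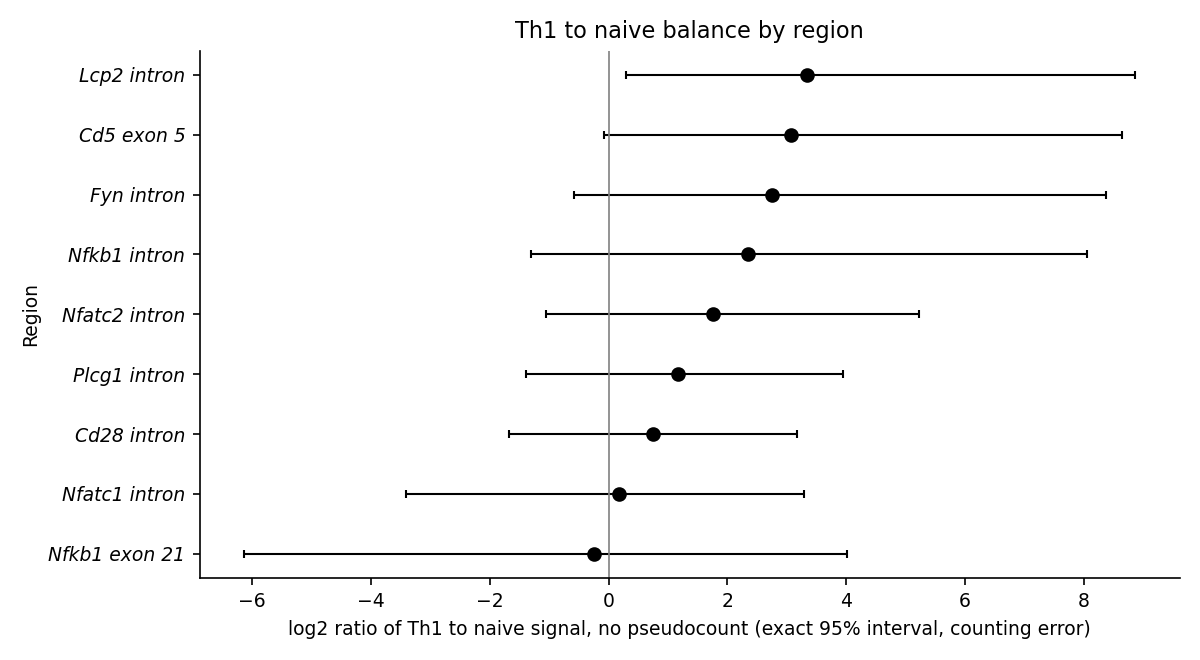
Log2 ratio of Th1 to naive signal without added units (x axis) for the 9 regions (y axis), with exact 95% binomial intervals that cover counting error only. The interval of Lcp2 starts at 0.30, the other 8 include 0, and all 9 overlap.

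Per 100 bp of region, the Th1 signal was highest in Lcp2 (3.63 units), Cd5 (3.50) and Cd28 (2.70) and lowest in Nfkb1 exon 21 (0.609) and Nfatc1 (0.687), against a median of 1.19 over the table. The naive signal per 100 bp was above the table's median of 1.30 in Cd28 alone (1.60) and was lowest in Fyn (0.197). The Treg signal per 100 bp was highest in Nfkb1 exon 21 (2.04) and lowest in Plcg1 (0.375), with a table median of 1.02. In reads, 4 of the 9 regions held 1 naive read, as did 8.78% of the table, and 6 held at least 4 Th1 reads, as did 13.0% of the table. Other regions differed: Cd28 held 4 naive reads, Nfatc1 2 Th1 reads and Nfkb1 exon 21 1 Th1 read. The genes were chosen with their values known, so these counts describe the 9 regions in single libraries and are no test.

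The Treg value lay between the other 2 in 6 regions, those of Cd5, Fyn, Lcp2, Nfatc1 and Nfatc2 and the Nfkb1 intron, as it did in 44.4% of the table. It was the lowest in Cd28 and Plcg1 (38.0% of the table) and the highest in Nfkb1 exon 21 (17.6% of the table). Against naive cells, 4 regions were higher in Treg (Fyn, Lcp2 and both Nfkb1 regions) and 1 lower (Plcg1), against 8.33% and 22.2% of the table. The Fyn and Nfkb1 intron regions had the same reads in both libraries and led with 4.25-fold (interval 0.628 to 182). The log2 ratio of summed values was 0.72 (interval -0.01 to 1.56), with -0.38 over the table. When each library was brought to the same total over the table, 6 regions were higher in Treg than naive and 0 lower, against 15.2% and 12.3% of the table. At those totals Th1 was the highest library in 6 regions (34.5% of the table) and Treg in 3 (30.8%), and Treg lay between the others in 4 (43.2%), so the place of Treg among the libraries was near that of the table. This rescaling adds 0.38 to every Treg to naive log2 ratio, 0.32 to every Treg to Th1 ratio and 0.06 to every Th1 to naive ratio before the added units.

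Against Th1 cells, 4 regions were lower in Treg and 1 was higher, against 21.0% and 17.0% of the table. The lower regions were those of Plcg1, Lcp2, Cd5 and Cd28. Plcg1 had the lowest ratio, at 0.157-fold (interval 0.0230 to 0.930), followed by Lcp2 at 0.280-fold (0.0851 to 0.978). The region higher in Treg was Nfkb1 exon 21, at 3.35-fold (0.521 to 141). The log2 ratio of summed values was -0.88 (interval -1.48 to -0.26), with -0.32 over the table. At equal table totals 3 regions were lower and 1 was higher, against 15.2% and 22.6% of the table. After adjustment over all regions the exact binomial test called 0 of the 9 regions between Treg and naive (smallest adjusted p 0.831; 0.00% of the table higher and 0.0100% lower) and 0 between Treg and Th1 (smallest adjusted p 0.739; 0.00% each way). Before adjustment 0 of the 9 regions passed 0.05 between Treg and naive, with 0.320% of the table higher and 8.08% lower in Treg. Between Treg and Th1, 3 regions were lower in Treg at an unadjusted exact p under 0.05, with 5.01% of the table: Plcg1 (p = 0.0203), Lcp2 (p = 0.0229) and Cd5 (p = 0.0423). These comparisons share libraries with the first one, so they are not separate evidence.

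**Figure D3:**
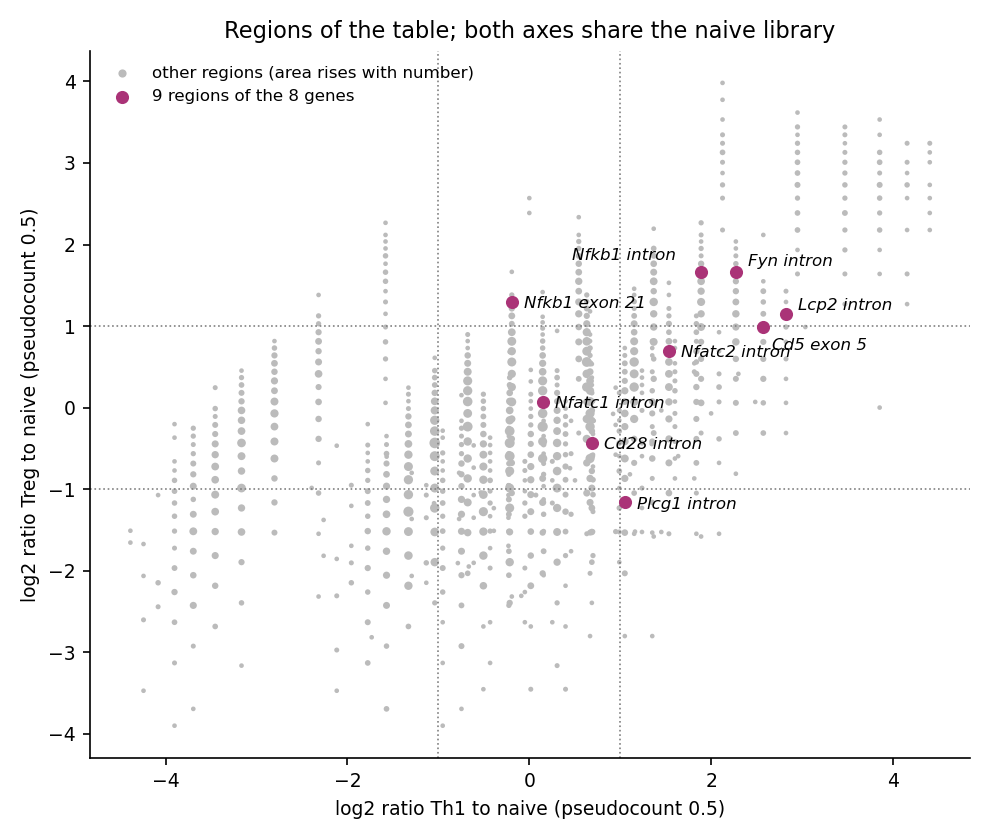
Log2 ratio of Th1 to naive (x axis) and of Treg to naive (y axis) with 0.5 units added, for the 9 named regions and the other regions of the table in grey; dotted lines mark the size rule. Both axes use the naive library, which links them. Of the 9 regions, 8 lie right of 0, as do 46.9% of the table. Plcg1 alone lies below the lower horizontal line (22.2% of the table).

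By place, 7 of the 9 regions were intronic, 2 exonic and 0 in a promoter, and the table's shares were 78.7% intronic, 16.6% exonic and 4.77% promoter. The size rule for Th1 above naive was met by 18.9% of intronic, 21.0% of exonic and 20.3% of promoter regions of the table. The regions were 240 to 506 bp long, with a median of 282 bp against 249 bp in the table. Fyn (506 bp) and Nfatc1 (489 bp) were among the longest, and 0.860% and 1.12% of the table were as long. All 9 had a mean value over the 3 libraries above the table's median of 3.06, from 3.10 for Nfkb1 exon 21 to 4.63 for Lcp2, and they held 10 to 19 reads over the 3 libraries. Outside Nfkb1, the nearest other region of the table lay between 34.6 kb away, for Plcg1, and 452 kb away, for Fyn, and was assigned to another gene. No region among the 9 had a directly adjoining one in the table.

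The other genes of the pathway were divided between the libraries. Of 106 genes in 8 lists of receptor, kinase, adaptor, lipid, calcium, NF-kappaB and early response genes, 31 had a region, 23 of them outside the 8 genes above, with 47 regions. Of these 47 regions, 8 were higher in Th1 than in naive cells and 10 lower, 17.0% and 21.3%, beside 19.4% and 29.0% of the whole table. Their median log2 ratio was -0.19, the same as the table's, and the ratio of summed values was 0.02 (interval -0.38 to 0.40). The difference from the 9 regions was not tested, since the 8 genes were chosen with their values known.

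The adaptor list had 15 such regions, 3 of them higher and 4 lower in Th1, and the calcium, calcineurin and NFAT list had 18, with 3 higher and 4 lower. The phospholipase, diacylglycerol and Ras list had 6, with 1 higher and 2 lower, and the NF-kappaB list 2, with 1 higher. The 4 regions of other kinase and phosphatase genes, the 1 of other costimulatory genes (Tnfrsf9) and the 1 of early response genes (Nr4a3) were neither. Cd5 was the only gene of 9 in the receptor and coreceptor list with a region, which does not show that the others lack captured DNA.

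Among the adaptors, Vav3 had 5 regions. Its exon 19 held 0 naive, 4 Th1 and 3 Treg reads, and one of its introns (chromosome 3, 109280841 to 109281062) had 6 reads in naive, 1 in Th1 and 0 in Treg. An intron of Grb2, which links receptors to Ras activation, held 14 Treg reads, 3 Th1 reads and 0 naive reads. Reads of 0 in the naive library still allow a value of up to 2.99, from a limit of 3 reads. An intron of Vav2 and exon 4 of Sh2d1a, an adaptor of SLAM receptors, both held 5 naive reads and 1 Th1 read. Skap1, an adaptor in integrin activation, held 1 naive, 0 Th1 and 12 Treg reads.

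In the branches below Plcg1 the calls also went both ways. An intron of Sos1, a Ras activator, had 4 reads in naive, 0 in Th1 and 5 in Treg. Of the calcineurin catalytic subunit genes, an intron of Ppp3ca held 1 naive, 2 Th1 and 9 Treg reads and an intron of Ppp3cc 2, 4 and 7, both higher in Th1 by the size rule. Exon 13 of Ppp3cc held 3, 0 and 8. Of the calcium channel genes Itpr1 and Itpr2, which had 4 and 7 regions, one Itpr1 intron held 5 naive, 1 Th1 and 7 Treg reads and one Itpr2 intron 3, 0 and 6. Of the other Itpr2 introns, one with 2, 3 and 15 reads was higher in Th1 by the size rule and one with 5, 1 and 16 lower. A Th1 count of 0 allows a value of up to 5.04 by the same fixed limit of 3 reads. The other NF-kappaB genes with a region were the kinase subunit genes Ikbkb (2 naive, 3 Th1 and 8 Treg reads) and Ikbkg (3, 3 and 5). Nfkb2, Rel, Rela and Relb had none, which again may reflect how the table's regions were chosen. In Treg, 7 of the 47 regions were higher and 8 lower than in naive cells (8.33% and 22.2% of the table), and 8 were higher and 12 lower than in Th1 cells (17.0% and 21.0% of the table).

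**Figure D4:**
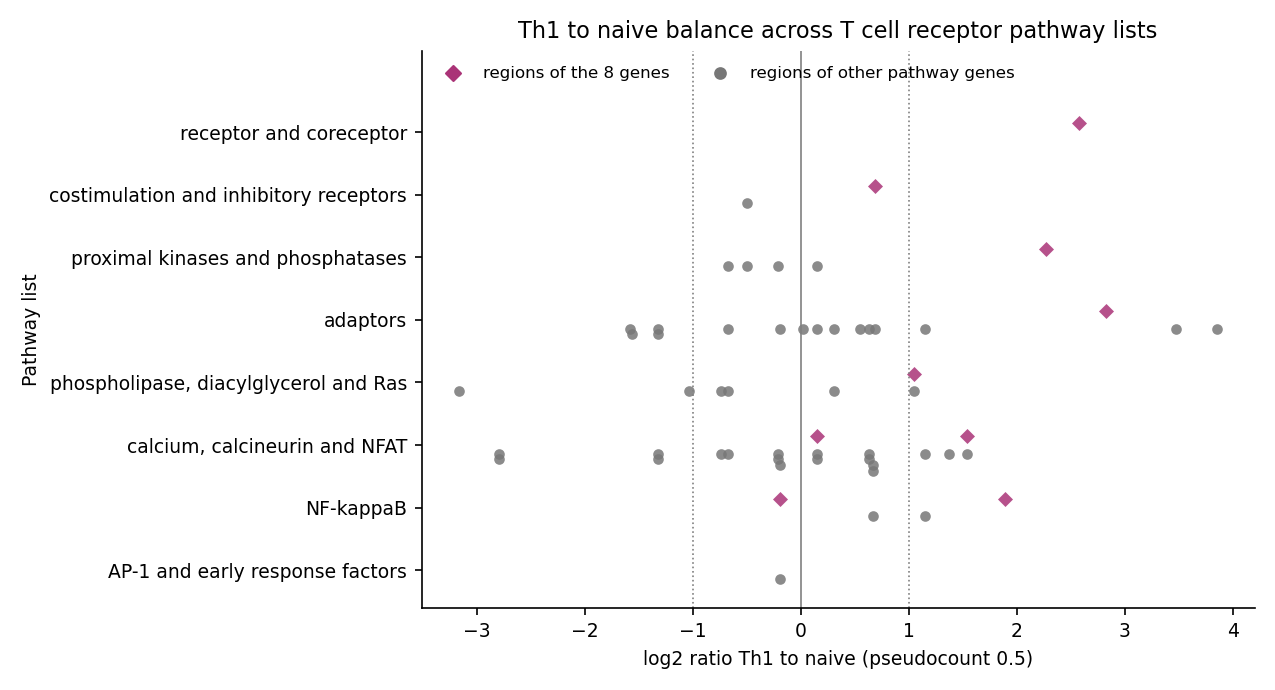
Log2 ratio of Th1 to naive with 0.5 units added (x axis) for every region of 8 pathway lists (y axis); diamonds are the 9 regions of the 8 genes and circles the 47 regions of other pathway genes. Circles lie on both sides of 0, 23 above and 24 below, and 46.9% of the table lies above 0. The 6 regions with no naive or no Th1 read have positions that depend on the added units.

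Genes of other blood cells were also in the table. Of 10 B cell markers 6 had a region, with 17 regions, of which 5 were higher and 6 lower in Th1 than in naive cells. Of 10 myeloid markers 4 had a region, with 5 regions, 1 higher and 2 lower. The table's shares were 19.4% higher and 29.0% lower. Captured DNA at these genes does not show that such cells were present, and their part in the values of the 9 regions was not tested.

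The 9 regions together had 17.3% of their summed signal in naive, 53.7% in Th1 and 29.0% in Treg. Among 1908 other regions with at least 16 reads, those most like this in their shares over the 3 libraries lay in an exon of Sec23a (3 naive, 6 Th1 and 15 Treg reads), an intron of Dennd1b and an exon of X99384 (2, 4 and 10 reads each). All were at a Euclidean distance of 0.0167 between shares, a distance that 19 regions had in common.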

How the data were processed

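Methylated DNA was captured with a MethylCap kit from 4 sorted populations, and 250 ng of precipitated DNA with fragments cut from a gel at 250 to 350 bp went into each library, per the labels' protocols. Bowtie 0.12.7, FastQC and the mm9 build are listed in the submitters' processing notes. Region calling, choice and scaling are not given in the sources. The authors deposited 1 signal per region and library. Every naive, Th1 and Treg value was a whole multiple of 1 constant per library (100% of values, relative tolerance 1e-06), so reads were recovered by division, giving 34277 naive, 19548 Th1 and 74571 Treg reads in the table.

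With 1 library per population no test between populations was made. A region was counted as higher or lower when the log2 ratio of values, with a pseudocount of 0.5, was at least 1 in size. Exact binomial tests of the reads, adjusted over all 10000 regions, compared libraries. Intervals of ratios are Clopper-Pearson intervals on the recovered reads, without a pseudocount. These intervals divide the error equally between the tails and the 2-sided test does not, so the 2 can disagree near the limit. Cd5 thus had an unadjusted exact p under 0.05 with an interval that includes equal values, for Th1 against naive and Treg against Th1. The tests were tested on simulated data. Python 3.11.15, scipy 1.17.1 and pandas 2.3.3 were used.

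The members and lists were chosen with earlier results of these data known. Text names every region of the 8 genes and the 3 regions most alike in library shares. It also names the 10 pathway genes with the largest Th1 to naive log2 ratio in either direction, of 13 past the size rule. Ikbkb, Ikbkg, the other NFAT and NF-kappaB genes and further regions of Vav3, Ppp3cc and Itpr2 were added after their values were seen. The 8 pathway lists and the B cell and myeloid marker lists were matched by symbol or synonym through a GRCm38.p6 table, used for names only, which held all 8 genes. No genome sequence of mm9 was used, so no sequences are shown.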

Additional observations from a re-analysis of the deposited data

How the results depend on the processing

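The direction of the summed Th1 to naive ratio was the same under all alternatives run: 1.40 with a pseudocount of 5, 1.65 at equal table totals, 1.52 as a mean over genes, and 1.40 to 1.77 when each gene was left out in turn. The summed Treg to naive ratio kept its sign, from 0.42 without Nfkb1 to 1.09 at equal table totals, and the Treg to Th1 ratio ran from -1.26 without Nfkb1 to -0.56 at equal table totals. The counts moved more with the settings, and the 9 regions hold 1 to 6 Th1 and 1 to 4 naive reads each. With a pseudocount of 5, which shrinks ratios of low values, 2 of the 9 regions were higher in Th1 than naive in place of 6. Of the table, 1.91% were higher and 2.21% lower. Of the 9 regions, 0 were higher and 0 lower in Treg than naive (0.06% and 0.73% of the table). Against Th1, 0 were higher and 0 lower in Treg (0.18% and 1.71% of the table). So few regions of the table passed that these counts of 0 do not set the 9 apart from it. For the other pathway genes that setting gave 2 higher and 0 lower in Th1 than naive, 0 and 1 in Treg against naive, and 0 and 0 in Treg against Th1. With a log2 threshold of 1.5, 5 regions were higher in Th1 than naive (9.65% of the table, with 15.3% lower). In Treg 2 were higher and 0 lower than in naive (4.05% and 12.1% of the table). Against Th1, 0 were higher and 3 lower in Treg (11.7% and 9.26% of the table). The pathway counts were 3 and 5, 3 and 4, and 4 and 5, higher and lower in the same order of comparisons. At equal table totals 0 of the 9 regions and 4 pathway regions were lower in Treg than naive (12.3% of the table). The exact binomial test, adjusted over all regions, gave 0 of the 9 regions in each direction of each of the 3 comparisons. At most 0.0100% of the table passed in any of them, so these counts do not set the 9 regions apart. No paired analysis was possible because each population has 1 library. In all, 60 of the alternative values counted as unchanged and 27 as moved. A count was unchanged if it equalled the main count or lay within 1.5-fold of it, and a summed ratio if it lay inside its interval. Those intervals are wide and counts that stayed at 0 were included, so this tally is lenient.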
